A study of Mus musculus with 16 samples.

Results

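The step from macrophage and dendritic cell progenitors (MDPs) to common monocyte progenitors (cMoPs) was described in Dnmt1c/chip mice, which carry a null allele of the maintenance DNA methyltransferase gene Dnmt1 together with a hypomorphic one. The comparison was chosen by its sample labels and sets the 4 arrays of c/chip cMoPs against the 4 arrays of c/chip MDPs, 8 of the 16 arrays of the series. The other 8 arrays hold the same cell types from Dnmt1+/+ mice, 4 each, and are used as the control step. The titles of the control cMoPs carry both genotype names, and these arrays were placed by their source and genotype labels, which name Dnmt1+/+ alone. All mice were 8 to 12 weeks old and untreated as far as the labels say. Both populations were sorted from bone marrow flushed out of femurs and tibiae, after lysis of red cells, as live lineage-negative cells with high Kit, with CD115 (the product of Csf1r) and without CD11b (the product of Itgam). Ly-6C separated them, absent from MDPs and present on cMoPs. The c/chip alleles are carried in every cell of the animal, so changes that arose before the MDP stage or outside blood cells are part of the model. Whether each array stands for its own animal is not given in the labels, so the p-values reflect the spread between these samples. Each group held both high and low levels of Xist, given below for c/chip mice, so its arrays were not all from the same animal.

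MDPs are bone marrow progenitors that can give rise to monocytes, macrophages and dendritic cells. The cMoP arises from the MDP, has lost the potential for dendritic cells and makes monocytes. Along this path, progenitors switch off genes of stem cells and of other blood lineages and switch on genes for sensing and digesting microbes. The transcription factors PU.1, Irf8 and Klf4 are known drivers of that programme, and GATA factors belong to the erythroid, megakaryocyte and mast cell fates. Dnmt1 copies DNA methylation onto the new strand after replication, and reduced Dnmt1 is known to weaken lymphoid potential while keeping myeloid and erythroid potential in blood stem cells of these mice.

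Levels are log2 values after RMA, the array method that corrects background, aligns the arrays' distributions and summarises each probe set. Array medians lay between 3.43 and 3.62 and array maxima between 12.93 and 13.33. A group mean below every array's median is close to background, so a fold change against it is a lower limit. Within groups, arrays correlated at 0.964 to 0.983 for c/chip cMoPs and at 0.936 to 0.955 for c/chip MDPs, and the median SD of a gene was 0.208 and 0.304.

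The c/chip MDP arrays differed among themselves in ways the labels do not record. Xist, the X-inactivation transcript of female cells, was at 9.51, 4.26, 10.65 and 9.72 on c/chip MDP replicates 1 to 4, and the mean of 3 Y-linked genes was at 6.42, 6.73, 5.27 and 5.51. Replicates 1, 3 and 4 therefore carried both kinds of transcript at high levels. Among the c/chip cMoPs, replicate 1 had high Xist (10.9) and a low Y-linked mean (2.67), and the other three had Xist between 4.33 and 5.16 with Y-linked means of 6.7 to 7.34. Results are given below for all arrays and, where marked, with c/chip MDP replicate 2 as the single c/chip MDP array, a fit that takes the lone array to vary like the other groups. The mean level of 20 erythroid genes also spread widely over c/chip MDPs (7.1, 6.36, 5.25 and 6.11), and that of 28 late neutrophil genes was highest on replicate 1 (7.21, against 5.42, 5.67 and 6.46). The part of these sample differences in each gene's result was tested only by the fits named beside it.

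Of 22180 genes tested, 399 were higher and 331 lower in c/chip cMoPs than in c/chip MDPs at an adjusted p below 0.05 (limma, Benjamini-Hochberg over all genes), which is 1.80% and 1.49% of the genes. At least 2-fold were 194 of the higher and 203 of the lower genes, at least 4-fold 25 and 59, and at least 8-fold 2 and 19. The falls thus reached larger sizes than the rises. In 680 of the 730 called genes the 4 cMoP arrays did not overlap the 4 MDP arrays, a separation that 10.1% of all genes showed. The median difference over all genes was −0.04 on the log2 scale. The split of calls depended on scaling: 54.7% were higher here, 65.8% (507 higher, 264 lower) after each array was centred on its median, and 50.3% (360 higher, 355 lower) after another quantile normalization. Of the lower genes, 111 had a cMoP mean below every array's median, and of the higher genes 33 had such an MDP mean, and for these the size is a lower limit. Gata1, Epor, Myct1, Ifitm1, Fpr2 and Itgax, described below, are among these lower genes. With c/chip MDP replicate 2 as the single MDP array, 191 genes were higher and 181 lower. A fit of the 8 c/chip arrays alone gave 267 and 215, and leaving out c/chip cMoP replicate 3 gave 229 and 208.

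The gate markers followed the sort for Ly-6C. Ly6c2, a main gene of the Ly-6C antigen, was at 11.16, 11.41, 11.09 and 11.42 in c/chip MDPs and at 12.03, 12.09, 12.18 and 12.17 in c/chip cMoPs. The groups did not overlap, but MDPs already had a high level, and the log2 difference was 0.85 (SE 0.136, 1.80-fold, adjusted p = 0.00175). Ly6c1, the second Ly-6C gene, was 1.22 higher (SE 0.28, adjusted p = 0.0212), but not in 5 of the 16 fits made with 1 array removed (highest adjusted p 0.0749). Csf1r, the receptor for macrophage colony-stimulating factor and part of both gates, was 0.76 higher in cMoPs (SE 0.157, adjusted p = 0.0107). Kit differed by −0.31 (SE 0.149, adjusted p = 0.333) and Itgam by 0.42 (SE 0.248, adjusted p = 0.448). An exact permutation test of each gene, two-sided and over 70 arrangements, gave p = 0.0286, the smallest they allow, for Ly6c2, Ly6c1, Csf1r and Kit, and p = 0.229 for Itgam. None of these 5 genes passed by limma when c/chip MDP replicate 2 was the single MDP array (Ly6c2 0.71, adjusted p = 0.142), where 372 of all genes did.

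Dnmt1 did not differ detectably between the c/chip populations. It was at 8.89, 8.36, 8.97 and 8.79 in MDPs and at 8.82, 8.69, 9 and 8.98 in cMoPs, groups that overlapped (difference 0.12, SE 0.137, adjusted p = 0.738, exact permutation p = 0.514). All 8 values lay below the control means of 9.86 in MDPs and 9.78 in cMoPs.

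Some of the cell type markers differed between the populations. Of 9 MDP markers, 3 were lower and 1 higher in c/chip cMoPs (median −0.43). Flt3, the receptor that sustains dendritic cell development, was at 7.43, 7.17, 7.13 and 8.13 in MDPs and at 5.42, 5.4, 4.85 and 4.66 in cMoPs, so every cMoP array lay below every MDP array (−2.38, SE 0.236, 5.22-fold lower, adjusted p = 1.60e-05). Sox4, a transcription factor of early progenitors, fell by 1.39 (SE 0.16, adjusted p = 7.58e-05), and Cd34, a surface glycoprotein of progenitors, fell by 0.69 (SE 0.151, adjusted p = 0.0162). Cd34 missed the threshold in 1 of 16 fits with 1 array removed (adjusted p = 0.0508). The marker that was higher was Csf1r. Cx3cr1, a chemokine receptor gene of MDPs and monocytes, differed by −0.43 (SE 0.185, adjusted p = 0.258), Irf8 by 0.37 (SE 0.128, adjusted p = 0.149), Runx3 by −0.51 and Cd93 by −0.06. A second, dimmer Irf8 probe set gave 0.69 with an adjusted p of 0.0207 among all probe sets.

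Of 12 cMoP markers, 6 were higher and 0 lower (median 0.72). The higher ones include the sort gate genes Ly6c1, Ly6c2 and Csf1r, given above. Ly-6C itself separated the populations, so the rise of Ly6c1 and Ly6c2 follows the sort. Klf4, a transcription factor needed for monocytes, was at 5.59, 4.55, 4.37 and 5.86 in MDPs and at 8.38, 7.82, 8.1 and 8 in cMoPs, a clear separation (2.98, SE 0.287, 7.90-fold, adjusted p = 1.35e-05). The serine protease genes Elane and Prtn3 of azurophil granules were 0.79 (SE 0.142) and 0.50 (SE 0.109) higher, with adjusted p = 0.00422 and 0.0152, and Prtn3 missed the threshold in 1 of 16 fits with 1 array removed (0.0546). Ms4a3, a marker of progenitors committed to granulocytes and monocytes, was at 10.49, 10.47, 10.41 and 10.22 in MDPs and at 11.03, 11, 11.1 and 11.17 in cMoPs, and its difference of 0.68 (SE 0.189, adjusted p = 0.0609) missed the threshold. F13a1 (0.48, SE 0.127, adjusted p = 0.0511), Fcgr3 (0.97, SE 0.306, adjusted p = 0.105), Mpo (0.14, SE 0.109, adjusted p = 0.59) and Ccr2 (0.06, SE 0.118, adjusted p = 0.859) did not pass either. With c/chip MDP replicate 2 as the single MDP array, 1 cMoP marker, Klf4, was called (3.52, adjusted p = 6.28e-05).

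Several of the largest falls were in genes of the erythroid, megakaryocyte and mast cell lists. Of 20 measured erythroid genes, 10 were lower in c/chip cMoPs and 0 higher, with a median difference of −1.94. Car1, carbonic anhydrase 1 of red cell precursors, was at 11.28, 10.81, 8.12 and 10.31 in c/chip MDPs and at 3.82, 3.35, 5.46 and 4.5 in c/chip cMoPs. The populations did not overlap although replicate 3 was the lowest MDP array and the highest cMoP array (−5.85, SE 0.538, 57.5-fold, adjusted p = 7.89e-06). Car2, a second carbonic anhydrase of red cells, was at 9.94, 9.19, 8.61 and 9.54 against 3.8, 4.72, 4.34 and 5.07 (−4.84, SE 0.477, 28.6-fold, adjusted p = 1.58e-05). Gfi1b, a repressor required for erythroid and megakaryocyte maturation, was at 9.33, 8.68, 6.66 and 8.77 against 3.57, 4.69, 3.87 and 3.66 (−4.41, SE 0.444, 21.3-fold, adjusted p = 1.77e-05). MDP replicate 3 was again the lowest of its group for Gfi1b, and all cMoP arrays lay below it. The water channel gene Aqp1 fell by 3.11 (SE 0.447, adjusted p = 6.44e-04) and the erythropoietin receptor gene Epor by 1.95 (SE 0.243, adjusted p = 1.48e-04). Hemgn, Ermap, Klf1 and Rhag were the other called members with Gata1, the master regulator of red cells (−2.22, SE 0.414, adjusted p = 0.00535). Among these, Klf1, an erythroid activator, was at 7.87, 6.26, 5.22 and 6.11 in MDPs and at 3.79 to 4.24 in cMoPs (−2.34, SE 0.444, adjusted p = 0.00605). In bulk samples, fewer cells of a type and less RNA per cell cannot be told apart.

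The erythroid count was recomputed with c/chip MDP arrays left out. It was 12 lower with replicates 2 and 4, 10 without replicate 1 and 14 without replicate 3, the array with the lowest erythroid level. Each of these fits kept an array that carried both Xist and Y-linked transcripts. Replicate 2 as the single MDP array gave a median difference of −1.86 for the list, against −1.94 with all arrays. With 1 array in that group, its own spread could not be measured. Mean levels of the list were 5.25 to 7.1 in c/chip MDPs and 4.24 to 4.37 in c/chip cMoPs.

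Of 23 megakaryocyte and platelet genes, 11 were lower and 0 higher, with a median of −1.0. Pf4, platelet factor 4 of platelet granules, was at 9.19, 8.1, 8.45 and 8.94 in MDPs and at 3.45, 3.97, 2.33 and 2.88 in cMoPs (−5.51, SE 0.478, 45.7-fold, adjusted p = 5.87e-06). The cMoP mean lay below every array's median, so the fold is a lower limit. F2r, the thrombin receptor, fell by 3.45 (SE 0.394, adjusted p = 7.08e-05). The platelet glycoprotein genes Gp5 and Gp9 fell by 2.62 (SE 0.257, adjusted p = 1.58e-05) and 2.45 (SE 0.501, adjusted p = 0.0104), with cMoP means of 2.47, below every array's median, and 3.64. The others were Slamf1, Ppbp, Cd9, Itga2b, Vwf, Cavin2 and Plek, with differences from −1.0 to −1.81. Itga2b, the integrin alpha IIb that marks megakaryocytes, was at a mean of 4.94 in MDPs and 3.89 in cMoPs (−1.05, adjusted p = 0.00548). The count of this list was sensitive to the MDP arrays: 9 lower without replicate 1, 7 lower and 1 higher with replicates 2 and 4, and 4 lower and 1 higher with replicate 2 alone, where Pf4 (−4.95), Gp5 (−1.64) and F2r (−2.86) kept their calls and Gp9 did not (−1.05, adjusted p = 0.595).

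Mast cell and basophil genes gave 6 lower and 1 higher of 27 measured (median −0.31). Cpa3, the mast cell carboxypeptidase, was at 9.56, 7.93, 9.13 and 8.86 in MDPs and at 3.11, 2.7, 3.24 and 3.46 in cMoPs, where it was at background (−5.74, SE 0.368, 53.6-fold as a lower limit, adjusted p = 1.60e-07). Gata2, the transcription factor shared by stem cells, mast cells and megakaryocytes, was at 8.99, 8.4, 8.27 and 7.73 against 4.26, 3.9, 4.52 and 5.4 (−3.83, SE 0.378, 14.2-fold, adjusted p = 1.58e-05). Every MDP array thus stood far above every cMoP array for both genes. Slc18a2, the vesicular monoamine transporter, fell by 2.10 (SE 0.325, adjusted p = 0.00132), Ifitm1 by 1.89 (SE 0.37, adjusted p = 0.00738) and Mcpt8, the basophil protease, by 1.27 (SE 0.251, adjusted p = 0.00782). Ltc4s, leukotriene C4 synthase, was the other lower member (−0.79, adjusted p = 0.0451), and the member that rose was the transcription factor gene Mitf (0.95, adjusted p = 0.00296). The counts were 3 lower and 0 higher with c/chip MDP replicate 2 as the single MDP array.

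**Figure D1:**
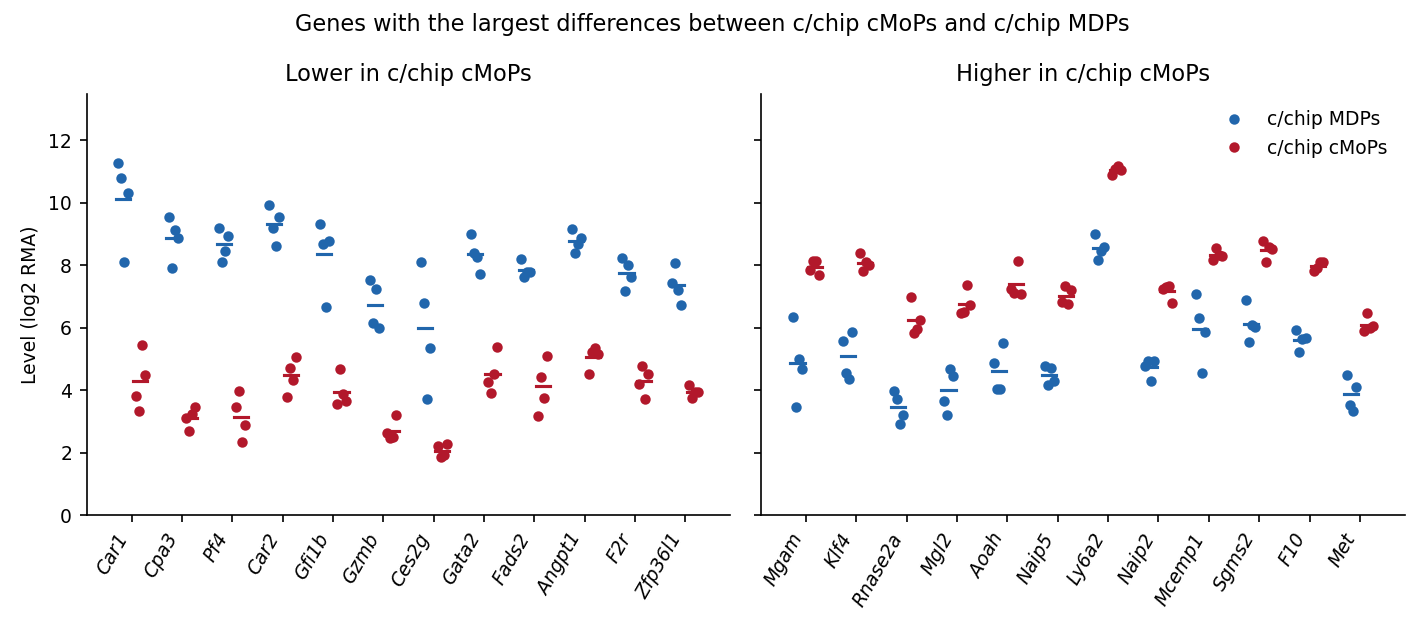
Level on each array (log2 RMA, vertical axis) of the 12 genes with the largest falls and the 12 with the largest rises in c/chip cMoPs, with c/chip MDPs in blue, c/chip cMoPs in red and a bar at each group mean. Falls start from MDP levels of 3.73 to 11.28, and the rises other than Ly6a2 end at cMoP levels of 5.84 to 8.78.

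Promoter sequences are shown for the named genes with the largest falls among those whose window holds a GATA motif. This motif was chosen because GATA factor genes fell too. Car1, Car2, Gfi1b and Gzmb fell further than Ces2g and are not shown, as they had no match or no window. The windows run from 250 bases before to 50 bases after the start of the gene, were copied from RefSeq on GRCm38.p6, and are printed 5′ to 3′ on the gene's strand. Capitals mark the motif AGATAA or its reverse complement TTATCT.
Cpa3 promoter (chr3:20242132-20242431, minus strand): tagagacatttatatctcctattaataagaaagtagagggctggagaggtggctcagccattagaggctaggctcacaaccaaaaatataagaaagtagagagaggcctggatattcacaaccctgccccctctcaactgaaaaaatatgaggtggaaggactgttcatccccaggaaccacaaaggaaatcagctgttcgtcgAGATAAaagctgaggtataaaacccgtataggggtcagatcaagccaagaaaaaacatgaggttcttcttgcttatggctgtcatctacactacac
Pf4 promoter (chr5:90772185-90772484, plus strand): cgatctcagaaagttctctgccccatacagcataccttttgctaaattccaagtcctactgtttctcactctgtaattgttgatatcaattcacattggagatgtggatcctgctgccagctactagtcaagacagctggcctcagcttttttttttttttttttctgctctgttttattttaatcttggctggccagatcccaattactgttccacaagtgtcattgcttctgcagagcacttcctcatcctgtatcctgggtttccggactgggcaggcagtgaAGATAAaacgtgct
Ces2g promoter (chr8:104961468-104961767, plus strand): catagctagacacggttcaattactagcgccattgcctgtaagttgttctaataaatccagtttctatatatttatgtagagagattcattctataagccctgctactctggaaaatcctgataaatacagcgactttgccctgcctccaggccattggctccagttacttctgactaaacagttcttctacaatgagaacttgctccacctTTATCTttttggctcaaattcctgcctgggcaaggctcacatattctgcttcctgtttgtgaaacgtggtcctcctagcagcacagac
The motif starts 46 bases before the start of Cpa3, 38 bases before that of Ces2g, where it reads on the opposite strand, and 37 bases after that of Pf4. AGATAA on either strand was found in 9.98% of the 16990 genes with a window, in 13.1% (34 of 260) of the lower genes and in 9.15% (28 of 306) of the higher genes. A second motif, CCNCACCC, which is read by KLF factors, was in 18.1% of all windows, 24.2% of those of lower genes and 17.6% of those of higher genes. These shares are descriptions and were not tested, and a match is not a site of binding.

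Ces2g, a carboxylesterase gene, varied most among MDPs of these genes. It was at 8.12, 6.78, 3.73 and 5.35 in MDPs and at 2.21, 1.87, 1.93 and 2.28 in cMoPs, all below the array medians (−3.92, SE 0.633, adjusted p = 0.00183). Gzmb, granzyme B of cytotoxic lymphocytes and mast cells, was at 7.54, 6.14, 7.23 and 5.98 against 2.63, 2.46, 2.51 and 3.21 (−4.02, SE 0.341, 16.2-fold as a lower limit, adjusted p = 5.06e-06). It was the 1 called member of 25 T, NK and innate lymphoid genes, or 4.0%, against 1.49% of all genes called lower. Fads2, a fatty acid desaturase, fell by 3.73 (SE 0.334, adjusted p = 7.15e-06) and Zfp36l1, which speeds messenger RNA decay, by 3.41 (SE 0.473, adjusted p = 4.72e-04). A dimmer probe set of Zfp36l1 gave −1.79. All 12 largest falls kept their calls with c/chip MDP replicate 2 as the single MDP array, at sizes of 2.86 to 6.53, and without any 1 array (adjusted p up to 0.00833).

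Of 34 stem and early progenitor genes measured, 14 were lower and 0 higher (median −0.68), and the mean level of the list was 6.79 to 7.22 on the MDP arrays and 5.84 to 5.92 on the cMoP arrays. Angpt1, angiopoietin 1, was at 9.15, 8.39, 8.68 and 8.87 in MDPs and at 4.51, 5.21, 5.34 and 5.17 in cMoPs (−3.71, SE 0.231, 13.1-fold, adjusted p = 1.60e-07). Adgrg1, the adhesion receptor GPR56 of stem cells, was at 9.57, 8.87, 9.07 and 9.48 against 5.53, 6.01, 6.34 and 5.71 (−3.35, SE 0.212, 10.2-fold, adjusted p = 1.60e-07). Every MDP array lay above every cMoP array for both genes. A dimmer probe set of Angpt1 gave −1.62. Myct1 fell by 3.17 (SE 0.371, adjusted p = 8.51e-05) and the stem cell transcription factor gene Meis1 by 2.01 (SE 0.416, adjusted p = 0.0109). The transcription factor genes Hlf (−1.72), Tal1 (−1.20), Mecom (−1.16) and Erg (−0.73) fell as well, as did Muc13 (−1.70) and Slamf1 (−1.81). Of the list, 7 members were lower with c/chip MDP replicate 2 as the single MDP array.

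Of 50 monocyte genes, 15 were higher and 3 lower (median 0.47). The largest rise was that of Klf4 (2.98), given above. Gda, guanine deaminase, was at 6.57, 5.64, 5.85 and 6.7 in MDPs and at 8.11, 7.99, 8.29 and 8.07 in cMoPs (1.92, SE 0.337, 3.80-fold, adjusted p = 0.00327). Cybb, the catalytic subunit of the phagocyte NADPH oxidase, was at 8.33, 7.26, 7.97 and 7.24 against 9.23, 9.28, 9.61 and 9.36 (1.67, SE 0.239, 3.19-fold, adjusted p = 6.21e-04). Neither gene overlapped between the populations. S100a4, a calcium-binding protein of motile cells, was 1.39 higher (SE 0.235, adjusted p = 0.00266), Hp, haptoglobin, 1.18 (SE 0.275, adjusted p = 0.0232) and Lgals3, galectin 3, 1.11 (SE 0.206, adjusted p = 0.0053). Lysozyme, Lyz2, was 0.72 higher (adjusted p = 0.011), and the rises of Tyrobp, S100a10, Ms4a6c, Clec12a, Ly86, Anxa1 and Ctsc lay between 0.46 and 1.04. The 3 lower genes were Apoe (−1.11, SE 0.242, adjusted p = 0.0157), Ifitm3 (−0.82) and Emilin2 (−0.69). Hp and Ctsc each missed the threshold in 5 of 16 fits with 1 array removed (highest adjusted p 0.0763 and 0.0769), Ms4a6c in 14 (0.147), Emilin2 in 3 (0.0611) and Apoe in 1 (0.0577). The count of higher genes was 11 without MDP replicate 1 and 5 with c/chip MDP replicate 2 as the single MDP array.

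The largest rises held several enzyme genes. Mgam, a maltase-glucoamylase, was at 6.36, 3.48, 5 and 4.68 in MDPs and at 7.84, 8.15, 8.13 and 7.68 in cMoPs (3.07, SE 0.392, 8.40-fold, adjusted p = 1.97e-04). The MDP arrays spread over almost 3 units while the cMoP arrays stayed within 1. Rnase2a, a secreted ribonuclease, was at 3.99, 3.73, 2.91 and 3.2 against 7, 5.84, 5.97 and 6.24 (2.80, SE 0.255, 6.98-fold, adjusted p = 7.64e-06). Aoah, which deacylates bacterial lipopolysaccharide, was at 4.86, 4.05, 4.05 and 5.51 against 7.23, 7.12, 8.15 and 7.07 (2.77, SE 0.365, 6.83-fold, adjusted p = 2.71e-04). F10, coagulation factor X, was 2.37 higher (SE 0.216, adjusted p = 7.64e-06) and Sgms2, sphingomyelin synthase 2, 2.37 higher (SE 0.392, adjusted p = 0.00221). Mcemp1, a membrane protein gene of mast cells and monocytes, was 2.38 higher (SE 0.414, adjusted p = 0.00327), and Met, the hepatocyte growth factor receptor, 2.23 (SE 0.383, adjusted p = 0.00296). Of the 12 largest rises, 11 kept their calls with c/chip MDP replicate 2 as the single MDP array and Met did not (2.56, adjusted p = 0.0506). All 12 kept them without any 1 array (adjusted p up to 0.0137).

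Of 37 pattern recognition genes, 10 were higher and 2 lower (median 0.29). Naip5, the inflammasome receptor for flagellin, was at 4.79, 4.16, 4.72 and 4.29 in MDPs and at 6.82, 7.34, 6.76 and 7.2 in cMoPs (2.54, SE 0.262, 5.80-fold, adjusted p = 2.29e-05). Naip2, which detects the rod protein of bacterial secretion systems, was at 4.79, 4.93, 4.31 and 4.94 against 7.25, 7.32, 7.34 and 6.81 (2.44, SE 0.26, 5.42-fold, adjusted p = 3.42e-05). Naip6, a related flagellin receptor outside the list and named after its value was seen, was 1.81 higher (SE 0.351, adjusted p = 0.00702). These genes are close relatives, and whether their probes cross-hybridize was not tested. Clec7a, the beta-glucan receptor Dectin-1, was at 3.74, 4.26, 4.49 and 4.15 against 6.37, 5.69, 6.55 and 6.51 (2.12, SE 0.234, 4.34-fold, adjusted p = 5.17e-05). Trem3, an activating receptor, was 2.12 higher (SE 0.306, adjusted p = 6.85e-04). Among the Toll-like receptors, Tlr1 was 1.47 higher (SE 0.29, adjusted p = 0.00782) and Tlr4, the lipopolysaccharide receptor, was 1.31 higher (SE 0.202, adjusted p = 0.00131). Clec5a (1.38), Ly86 (0.95), Clec12a (0.80) and Aim2 (0.57) were the other rises. The 2 lower members were Fpr2, a formyl peptide receptor, and Pglyrp1, a bactericidal granule protein (−1.63, SE 0.422, adjusted p = 0.0442). With 1 array removed, Pglyrp1 missed the threshold in 10 of 16 fits (highest adjusted p 0.139) and Clec5a in 5 (0.0715). With c/chip MDP replicate 2 as the single MDP array, 7 members were higher and 0 lower.

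Promoters are shown for the named genes with the largest rises among those whose window holds AGGAAGT, a motif that Ets factors such as PU.1 read. This motif was chosen since it was more frequent among the higher genes than among all genes. Mgam, Klf4, Rnase2a and Aoah rose more than Naip5 and Ly6a2 and are not shown, as they had no match or no window. Capitals mark it or its reverse complement ACTTCCT, with windows and source as above.
Mgl2 promoter (chr11:70130107-70130406, plus strand): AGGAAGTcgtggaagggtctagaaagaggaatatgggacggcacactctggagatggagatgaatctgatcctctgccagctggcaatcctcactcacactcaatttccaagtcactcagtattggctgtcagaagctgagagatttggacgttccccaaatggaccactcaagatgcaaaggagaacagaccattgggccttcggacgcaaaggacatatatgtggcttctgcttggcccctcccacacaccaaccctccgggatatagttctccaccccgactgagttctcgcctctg
Naip5 promoter (chr13:100247287-100247586, minus strand): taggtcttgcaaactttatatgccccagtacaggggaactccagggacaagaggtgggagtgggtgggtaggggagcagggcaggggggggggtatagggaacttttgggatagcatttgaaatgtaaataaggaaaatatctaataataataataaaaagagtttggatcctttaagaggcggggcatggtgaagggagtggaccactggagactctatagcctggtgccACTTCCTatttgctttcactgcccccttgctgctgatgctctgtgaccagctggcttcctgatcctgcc
Ly6a2 promoter (chr15:75135079-75135378, minus strand): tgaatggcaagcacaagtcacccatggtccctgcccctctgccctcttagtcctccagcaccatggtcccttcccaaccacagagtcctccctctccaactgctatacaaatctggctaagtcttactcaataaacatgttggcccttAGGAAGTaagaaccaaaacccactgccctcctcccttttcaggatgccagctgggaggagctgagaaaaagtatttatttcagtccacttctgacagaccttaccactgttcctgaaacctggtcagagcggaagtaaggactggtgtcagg
The motif opens the window of Mgl2, 250 bases before the start, and lies 102 bases before the start of Ly6a2 and 19 bases before that of Naip5, where it reads on the opposite strand. It was found on either strand in 9.28% of all windows, in 17.3% (53 of 306) of those of higher genes and in 7.31% (19 of 260) of those of lower genes. TTGCNNAA, read by C/EBP factors, was in 10.2%, 12.1% and 10.8%, and the motif of IRF factors in 3.35%, 2.94% and 3.85%. The shares of the 5 motifs were not tested.

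Mgl2, the galactose-type lectin CD301b, was at 3.66, 3.2, 4.69 and 4.45 in MDPs and at 6.48, 6.51, 7.38 and 6.74 in cMoPs (2.78, SE 0.337, 6.87-fold, adjusted p = 1.19e-04). Ly6a2, a member of the Ly6 surface protein family, was at 8.99, 8.18, 8.47 and 8.6 against 10.89, 11.09, 11.19 and 11.04 (2.49, SE 0.249, 5.63-fold, adjusted p = 1.71e-05). Both were separated completely between the populations. Lectin and Trem receptor genes, a list drawn up after their values had been seen, gave 9 higher and 0 lower of 25 measured (median 0.13). Besides those already named it held Olr1 (1.98, SE 0.528, adjusted p = 0.0492), Clec4a2 (1.79, SE 0.46, adjusted p = 0.0423), Clec11a (0.96, SE 0.203, adjusted p = 0.0128) and Trem2 (1.41, SE 0.293, adjusted p = 0.011). With 1 array removed, Olr1 missed the threshold in 14 and Clec4a2 in 8 of 16 fits (highest adjusted p 0.132 and 0.117). Trem2 was also the 1 called gene of 18 tissue macrophage genes (5.56%, against 1.80% of all genes called higher). Of the 18, 10 lay below the array medians in c/chip MDPs and 12 in c/chip cMoPs. Of 20 Ly6 family genes, another list of that kind, Ly6a2, Ly6c1 and Ly6c2 were higher and 0 lower.

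Of 23 primary granule genes, 5 were higher and 0 lower (median 0.37), and 22 had a difference above 0. Ctsc, cathepsin C, which activates granule proteases, was 1.04 higher (SE 0.244, adjusted p = 0.0243), and Elane, Prtn3, Clec11a and Mgl2 are given above. Clec11a, a secreted growth factor, and Mgl2 are not granule proteins. The mean level of the list was 8.87 on MDP replicate 1 and 8.44 to 8.5 on the other three, and 9.11 to 9.24 on the cMoP arrays. Of 31 NADPH oxidase and lysosome genes, 8 were higher and 0 lower (median 0.32). Ctsh, cathepsin H, was at 6.46, 6.84, 7.08 and 6.26 against 8.52, 8.36, 8.69 and 8.73 (1.91, SE 0.249, 3.76-fold, adjusted p = 2.41e-04), and Ncf4, the p40 subunit of the oxidase, was 0.84 higher (SE 0.173, adjusted p = 0.0105). Lamp1, Lamp2, Hexa and Ctsb rose by 0.52 to 0.81. Of 19 S100 and annexin genes, 5 were higher and 0 lower (median 0.37), namely S100a4, Anxa1 (0.96, SE 0.232), Anxa5 (0.69, SE 0.14), Anxa6 (0.68, SE 0.145) and S100a10 (0.62), of which Anxa1 and S100a10 had adjusted p = 0.0292 and 0.0469. Removing 1 array ended the call of Anxa1 in 6 of 16 fits (highest adjusted p 0.0963). Siglece, an inhibitory sialic acid receptor, was 2.02 higher (SE 0.359, adjusted p = 0.00365) and Siglecg 1.44 higher (SE 0.176, adjusted p = 1.28e-04), 2 of the 3 higher genes among 25 CD300, Ms4a and Siglec genes with Ms4a6c (0.63, adjusted p = 0.0469).

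**Figure D2:**
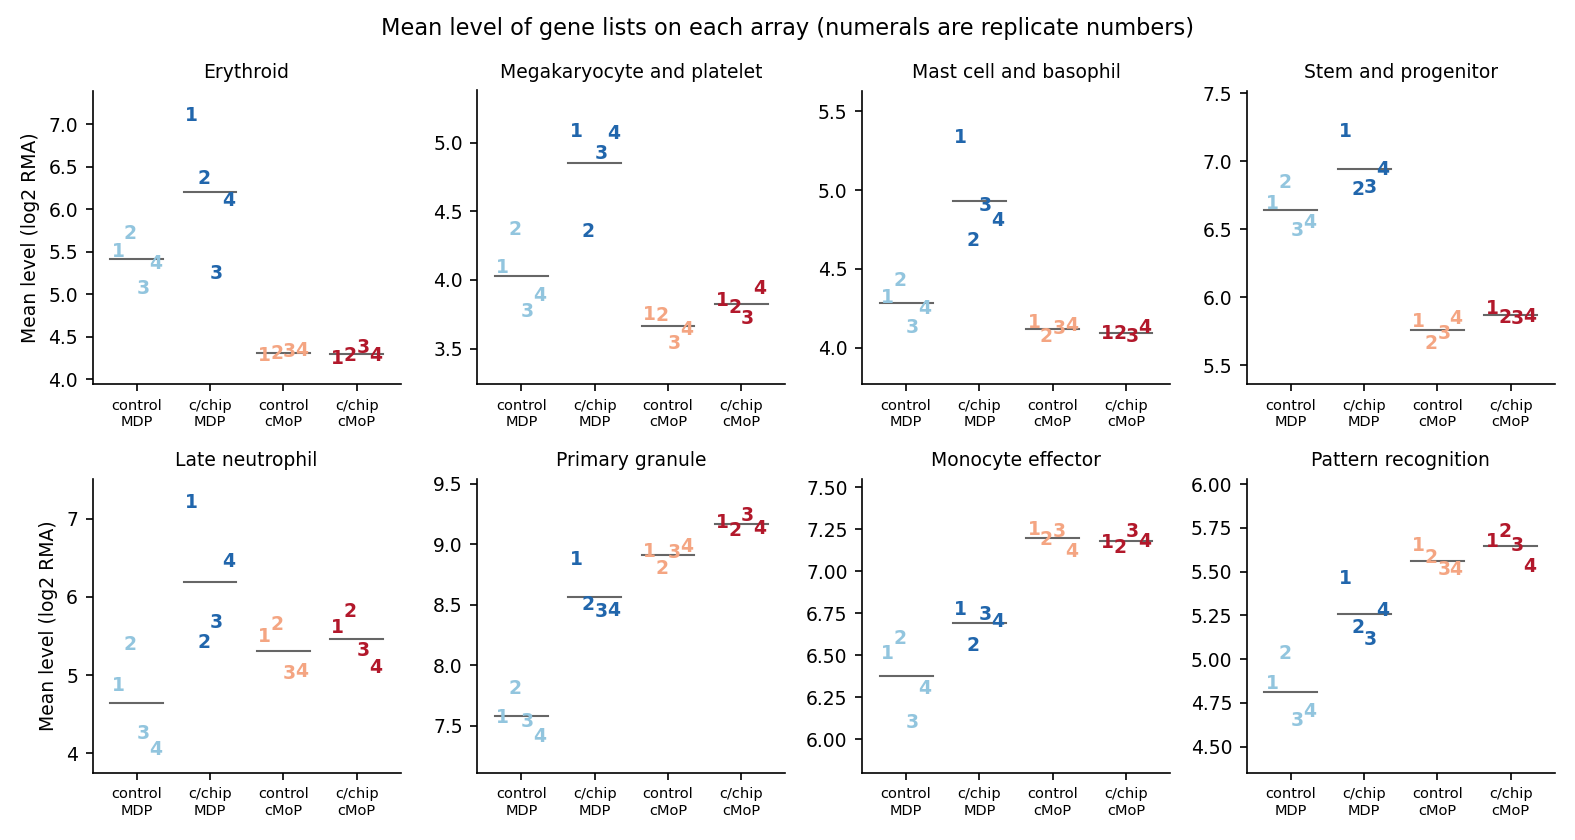
Mean level of the measured members of 8 gene lists on each of the 16 arrays (log2 RMA, vertical axes with their own ranges), with numerals for replicate numbers and a line at each group mean. Among these lists the c/chip MDP arrays spread widely for erythroid (5.25 to 7.1) and late neutrophil genes (5.42 to 7.21), and monocyte effector levels of c/chip cMoPs lay between 7.14 and 7.24.

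Late neutrophil genes moved both ways and varied with single arrays. Of 28 measured, 3 were higher and 3 lower (median −0.58). The lower ones were Fpr2 (6.51, 3.68, 3.57 and 6.17 in MDPs, 1.83 to 2.71 in cMoPs), the lactoferrin gene Ltf (8.64, 5.06, 5.5 and 5.84 against 2.53 to 4.48) and Mmp8, neutrophil collagenase (6.79, 6.28, 5.36 and 6.77 against 4.67 to 5.07). Their differences were −2.79 (SE 0.542, adjusted p = 0.00702), −2.78 (SE 0.63, adjusted p = 0.0199) and −1.46 (SE 0.256, adjusted p = 0.00327). Ltf missed the threshold in 2 of 16 fits with 1 array removed (highest adjusted p 0.0725). The higher ones, Cybb, Anxa1 and Lyz2, are also expressed by monocytes. Camp and Ngp, defining genes of late neutrophil granules, were high on MDP replicate 1 (10.05 and 9.89) and reached 8.56 and 7.12 on cMoP replicate 2, and did not pass (adjusted p = 0.327 and 0.113). With c/chip MDP replicate 2 as the single MDP array the median was −0.01, with 3 higher and 3 lower. The 9 eosinophil genes gave 0 calls by limma, while their mean level was 4.54 and 4.11 on MDP replicates 1 and 3 and 3.25 and 3.13 on the other pair. Prg2, the eosinophil major basic protein, was at 9.57, 5.95, 9.38 and 4.14 in MDPs and at 3.35, 2.23, 7.17 and 2.92 in cMoPs. For comparison, 3518 of all genes had an unadjusted p below 0.05.

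Flt3 was a called member of both the dendritic cell and the early lymphoid lists. Of dendritic cell genes 6.25% were lower and 3.12% higher, and of early lymphoid and B cell genes 4.0% were lower. Over all genes 1.49% were lower and 1.80% higher. Of 32 dendritic cell genes, 2 were lower and 1 higher (median −0.16). Itgax, CD11c, was at 5.62, 4.76, 4.91 and 4.62 in MDPs and at 3.23, 3.95, 3 and 3.06 in cMoPs (−1.67, SE 0.254, 3.18-fold as a lower limit, adjusted p = 0.00114). Lair1, an inhibitory collagen receptor, was 1.48 higher (SE 0.282, adjusted p = 0.00622). None of the 9 genes of MHC class II passed by limma. H2-Aa was nevertheless separated between the populations, at 6.05, 5.71, 4.47 and 6 against 4, 2.88, 3.29 and 3.49 (−2.14, SE 0.607, adjusted p = 0.0674), as was H2-Ab1 (−1.33, SE 0.395, adjusted p = 0.0835). Of 25 early lymphoid and B cell genes, Flt3 was the 1 called, and 2 were lower without c/chip MDP replicate 3. In all, 18 had a difference below 0 and 7 above (median −0.28, or −0.23 with c/chip MDP replicate 2 as the single MDP array). The list's mean level was highest on MDP replicate 2 (4.65, others 4.05 to 4.35), and was 3.86 to 4.02 on the c/chip cMoP arrays. Of 13 Fc receptor genes 0 passed, Fcgr2b being 0.61 higher (SE 0.196, adjusted p = 0.112) and Fcgr1 0.01 lower.

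Among 43 myeloid transcription factor genes, 1 was higher and 5 lower (median −0.24): Klf4 rose, and Gfi1b, Gata2, Gata1, Meis1 and Sox4 fell. Of 27 growth factor and cytokine receptor genes, Csf1r was higher and Flt3, Epor and Tgfbr2 were lower. Tgfbr2, the type II receptor for TGF-beta, was 0.89 lower (SE 0.233, adjusted p = 0.0451) and missed the threshold in 10 of 16 fits with 1 array removed. Of 33 chemokine and adhesion genes, Cd44 was higher (0.49, SE 0.127, adjusted p = 0.046), though not in 14 such fits. Itga6, a laminin-binding integrin, was at 5.71, 5.66, 5.82 and 5.86 in MDPs and at 4.79, 4.61, 4.68 and 4.48 in cMoPs (−1.13, SE 0.171, 2.18-fold, adjusted p = 0.00109). Itgb7, an integrin subunit used for homing to gut, was 0.55 lower (SE 0.135, adjusted p = 0.0307), and missed the threshold in 5 of 16 fits with 1 array removed (highest adjusted p 0.113). The third lower gene was Itgax. Higher genes were 2.33% of the transcription factor, 3.7% of the receptor and 3.03% of the chemokine and adhesion list, against 1.80% of all genes. Lower genes were 11.6%, 11.1% and 9.09%, against 1.49%.

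In each of the proliferation, growth and stress lists 1 gene was called, in each case lower. That is 2.56% of the cell cycle, 3.45% of the Myc and ribosome and 3.85% of the stress genes, against 1.49% of all genes. Of 39 cell cycle genes only Ccnd2, cyclin D2, passed (10.03, 9.86, 10 and 9.76 against 8.88, 8.85, 8.88 and 9.26, a difference of −0.94, SE 0.186, adjusted p = 0.0079), and the median was −0.03. Of 29 Myc and ribosome biogenesis genes only Srm, spermidine synthase, passed (−0.48, SE 0.127, adjusted p = 0.0481), and it missed the threshold in 15 of 16 fits with 1 array removed. Of 26 immediate early and stress genes Rgs1, a regulator of G protein signalling, passed (−2.47, SE 0.538, adjusted p = 0.0155), but not in 3 of those 16 fits (highest adjusted p 0.0642). The mean level of that list was 6.61 and 6.75 on cMoP replicates 1 and 2 and 5.11 and 4.87 on replicates 3 and 4, and 6.76 and 6.69 against 5.09 and 5.3 in MDPs, so replicates 1 and 2 were higher than replicates 3 and 4 in both cell types.

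Of 18 DNA methylation factor genes, Tet2, a 5-methylcytosine dioxygenase, was higher, at 6.29, 6.36, 6.13 and 5.73 in MDPs against 6.62, 7.77, 7.36 and 7.06 in cMoPs (1.08, SE 0.21, 2.11-fold, adjusted p = 0.00732). Dnmt3a, a de novo methyltransferase, was lower, at 5.91, 5.8, 6.12 and 5.5 against 5.23, 5.04, 5.29 and 5.13 (−0.66, SE 0.159, adjusted p = 0.0293). Neither gene overlapped between the populations. Dnmt3a missed the threshold in 7 of 16 fits with 1 array removed, and neither passed with c/chip MDP replicate 2 as the single MDP array (0.85, adjusted p = 0.287, and −0.63, adjusted p = 0.263). In the control step they differed by 0.14 and −0.34, and the difference between the steps did not pass (adjusted p = 0.344 and 0.741). Of 37 germline and meiosis genes 0 passed. Tex12, a component of the synaptonemal complex, differed by 0.80 (SE 0.415, adjusted p = 0.367) and Stag3, the meiotic cohesin subunit, by 0.95 (SE 0.257, adjusted p = 0.0541). Of 29 interferon genes, Slfn4 was higher (0.95, SE 0.25, adjusted p = 0.0466) and Xaf1 lower (−0.77, SE 0.177, adjusted p = 0.0217). They missed the threshold in 11 and 3 of 16 fits with 1 array removed. The calls are 3.45% of the interferon and 5.56% of the DNA methylation list in each direction. Over all genes 1.80% were higher and 1.49% lower.

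**Figure D3:**
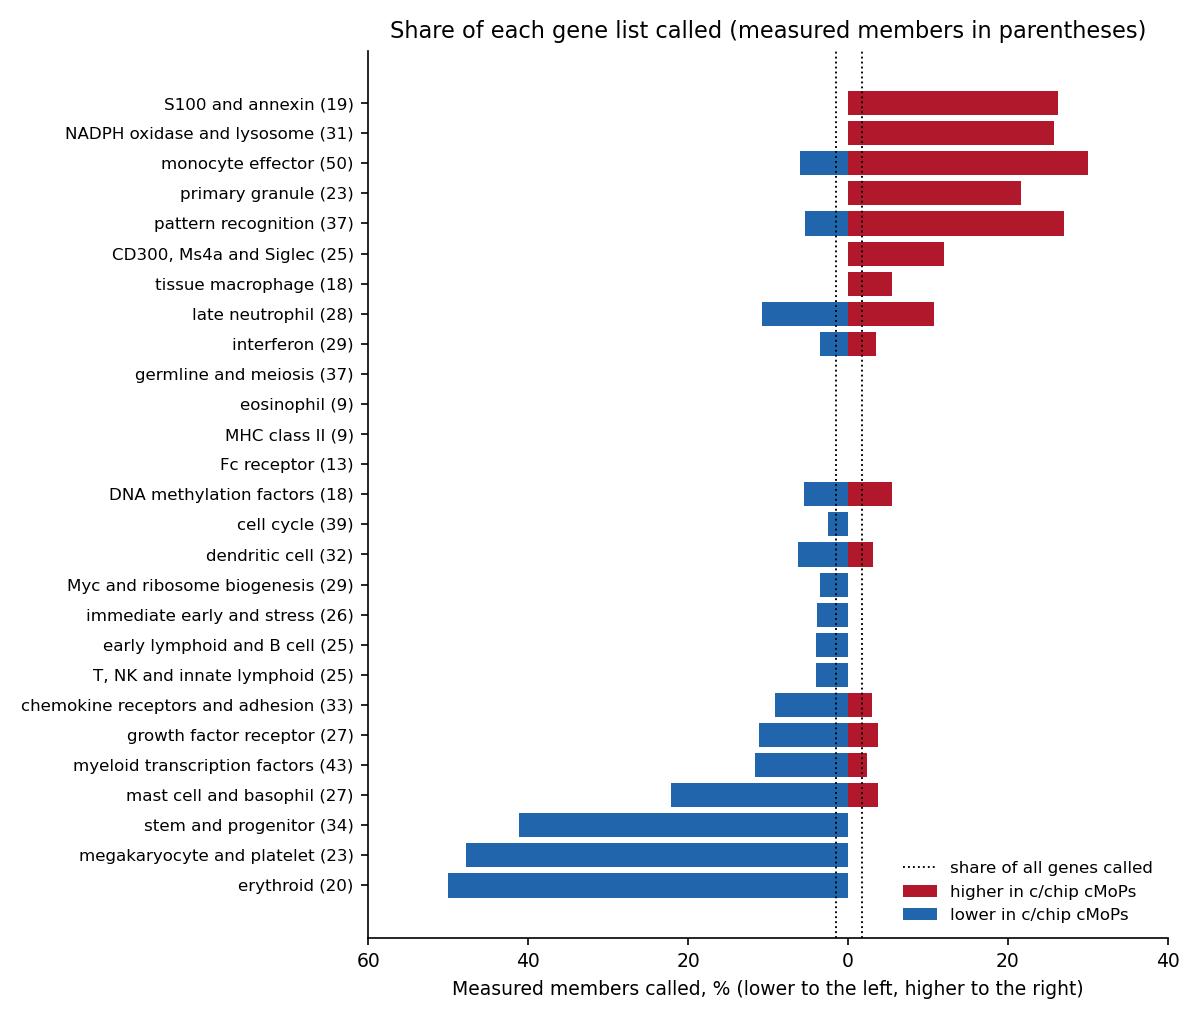
Percent of the measured members of each gene list that were called higher (red, right) or lower (blue, left) in c/chip cMoPs than in c/chip MDPs, with the number measured in parentheses and dotted lines at the shares over all genes (1.80% and 1.49%). The erythroid list had 10 of 20 and the megakaryocyte list 11 of 23 members lower, and the monocyte effector list had 15 of 50 higher.

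The same step in control mice gave 631 higher and 380 lower genes, 2.84% and 1.71% of those tested, with 247 lower when control cMoP replicate 1 was left out. The 2 steps share no array but share the estimate of the spread. Of the genes, 222 were higher in both, which is 55.6% of the c/chip and 35.2% of the control rises, and 111 were lower in both, 33.5% and 29.2% of the falls. The genes higher in both had a median difference of 1.08 in c/chip mice and 1.34 in control mice, and 148 of the 222 had the smaller difference in c/chip. Those lower in both had medians of −1.39 and −1.46, and 62 of the 111 fell further in c/chip. Emilin2, Srm and Vat1 were lower in the c/chip step and higher in the control step, 0.906% of the c/chip falls and 0.475% of the control rises, and 0 genes went the other way.

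By list, the counts of the steps stood as follows. Primary granule genes gave 5 higher in c/chip mice and 14 in control mice, with medians of 0.37 and 1.13. Erythroid genes gave 10 and 6 lower, with medians of −1.94 and −0.79, and the 6 were all among the 10. Megakaryocyte genes gave 11 and 3 lower, with medians of −1.0 and −0.27. Late neutrophil genes had medians of −0.58 and 0.52, and stem and progenitor genes gave 14 and 13 lower, 10 of them in both. These are the counts of each step, and the difference between the steps was tested gene by gene by limma. It was called for 0 erythroid, 1 megakaryocyte, 5 primary granule, 0 late neutrophil and 0 stem and progenitor genes. The 12 largest falls and 12 largest rises of the c/chip step were all called in the control step too. For 0 of them was the difference between the steps called (lowest adjusted p 0.0855 for falls and 0.473 for rises).

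That test called 13 genes (0.0586% of all), with a step in c/chip mice that was more positive for 3 and more negative for 10, where 1890 genes had an unadjusted p below 0.05. In all 13 the genotypes stood further apart in MDPs (0.83 to 4.69) than in cMoPs (0.07 to 0.38). Dntt, terminal deoxynucleotidyl transferase, which adds bases at antigen receptor joints, was at 5.63, 4.01, 3.15 and 4.22 in c/chip MDPs and at 2.56 to 3.04 in c/chip cMoPs, with control means of 8.94 and 2.91. Its step was −1.41 in c/chip and −6.03 in control mice (difference 4.61, SE 0.578, adjusted p = 0.00416), and the cMoP means of both genotypes lay below the array medians. Cmah, a sialic acid hydroxylase, and Cd300c, an activating receptor, also fell in the control step (−2.88 and −1.64) and did not pass in c/chip (−0.32 and 0.18), with differences of 2.56 (SE 0.398) and 1.82 (SE 0.283), both at an adjusted p of 0.0188.

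Among the 10 genes with a more negative step were granule genes whose level was already high in c/chip MDPs. Elane was at a mean of 11.4 in c/chip MDPs and 9.72 in control MDPs, and at 12.18 and 12.08 in cMoPs, so that its rise was 0.79 against 2.37 (difference −1.58, SE 0.201, adjusted p = 0.00416). Ms4a3 rose by 2.65 in control mice (difference −1.97, SE 0.267, adjusted p = 0.00667), and Nkg7, a granule membrane protein gene, by 2.33 against a c/chip difference of 0.59 (difference −1.75, SE 0.224, adjusted p = 0.00416). Hdc, histidine decarboxylase, had 0.13 in c/chip and 2.52 in control mice (difference −2.39, SE 0.38, adjusted p = 0.0221). Gp5 fell in c/chip and had a difference of 0.01 in control mice, where it was below the array medians in both cell types (difference −2.64, SE 0.364, adjusted p = 0.0067). Emilin2, an extracellular matrix protein gene, was at 9.22, 8.81, 9.25 and 9.51 in c/chip MDPs and at 8.47, 8.4, 8.62 and 8.56 in cMoPs (−0.69 against 0.73 in control mice, difference −1.42, SE 0.219, adjusted p = 0.0188). Srm differed by −0.48 against 0.62 (difference −1.09, SE 0.179, adjusted p = 0.0273).

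The remaining 3 genes were the glutathione genes Gsr and Gstm1 and the predicted gene Gm1604b. Gsr, glutathione reductase, rose by 0.92 in c/chip (SE 0.132, adjusted p = 6.53e-04) and by 1.99 in control mice (difference −1.07, SE 0.186, adjusted p = 0.0429). Gstm1, a glutathione transferase, had 0.35 and 1.70 (difference −1.35, SE 0.223, adjusted p = 0.0276), and Gm1604b 0.15 and 1.39. Of 27 antioxidant and glutathione genes, a list drawn up after these values had been seen, 4 were higher in the c/chip step and 0 lower (median 0.01), namely Gsr, Mgst2 (1.47, SE 0.229, adjusted p = 0.00141), Mgst1 (1.30, SE 0.205, adjusted p = 0.00152) and Gpx3 (1.07, SE 0.191, adjusted p = 0.00388). Of the 13 genes, Dntt, Elane, Nkg7, Ms4a3 and Gp5 kept their calls in every fit without 1 array. The others lost them in 4 to 13 of 16 such fits. A limma fit with the replicate number as a block kept Dntt and Hdc alone. In that fit Gp5 had an adjusted p of 0.0534, and Elane, Nkg7 and Ms4a3 had 0.0582. With c/chip MDP replicate 2 as the single c/chip MDP array, 25 genes were called, of which Dntt was the 1 shared. Without 1 array, 5 to 33 genes were called: 5 without c/chip cMoP replicate 2, c/chip cMoP replicate 4 or control cMoP replicate 1, 7 without control cMoP replicate 4, 8 without c/chip cMoP replicate 1, and 26 and 33 without c/chip MDP replicates 4 and 3.

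**Figure D4:**
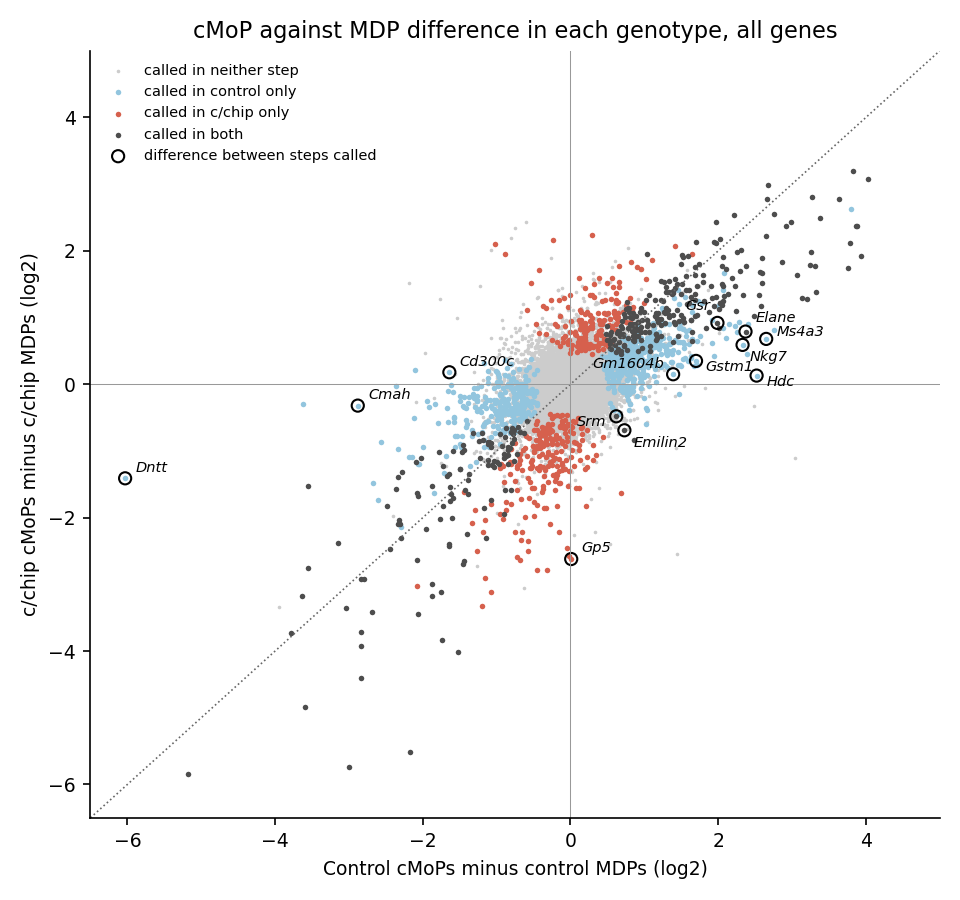
Difference of cMoPs minus MDPs for every gene (log2) in control mice (horizontal axis) and in c/chip mice (vertical axis), with equal steps on the dotted line and the 13 genes whose steps differed circled and named. Points in dark grey were called in both steps (222 higher and 111 lower in both), and Dntt lies far above the line at −6.03 and −1.41.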

How the data were processed

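Affymetrix arrays measured RNA of sorted bone marrow MDPs and cMoPs in 4 groups of 4 samples, grouped by genotype and cell type labels. The deposited values are on a log2 scale and, per the submitters' processing notes, which name affy, RMA and limma, were normalized by RMA. No versions are given in the sources used here. A second deposited table with 16 value columns that match no sample label was not used. Arrays give no read depth, so precision is limited by the 4 arrays per group. The series' design text and the probe annotation name different Affymetrix platforms.

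Of 41345 probe sets, 23521 carried 1 gene symbol, 1820 several and 16004 none. Of those with 1 symbol, 23328 were matched by Entrez identifier and 0 symbols changed. The brightest probe set stood for each of the 1082 genes with several, which left 22180 genes. All 16 arrays entered a single limma fit (limma 3.58.1, R 4.3.3) that estimated 4 group means, with empirical Bayes moderation and Benjamini-Hochberg adjustment over all genes, and called genes had an adjusted p below 0.05. Fold sizes are ratios of geometric means, computed from the deposited log2 values. The script was tested on simulated data. Single genes of the sort gate and Dnmt1 also had two-sided exact permutation tests.

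Genes named were the sort gate and marker genes, the 12 largest differences in each direction whose arrays did not overlap (predicted and unnamed transcripts passed over), up to 4 called members of each list, the first 2 members of a list with no call, and 12 genes with the lowest p for the difference between the genotypes' steps. Other list members named in the text, with Naip6, Vat1 and Gm1604b, were chosen after their values were seen. The members and lists were chosen with earlier results of these data known. Alternatives were other scalings, filters, probe set rules, covariates, weights and left-out arrays.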

Additional observations from a re-analysis of the deposited data

Results flagged for a closer look

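In 14 of 252 groups of 4 arrays examined for the named genes, 1 array stood apart from the other three by Dixon's criterion, and chance gives about 1 in 20. Among c/chip MDPs, replicate 4 was high for Cd34 (11.10, others 10.81 to 10.84), replicate 3 was low for Fcgr3 (4.0, others 4.82 to 4.88) and high for S100a4 (7.42, others 6.59 to 6.73), replicate 1 was high for Srm (10.27, others 10.06 to 10.09), and replicate 2 was low for Clec4a2 (2.92, others 5.14 to 5.48). Among c/chip cMoPs, replicate 3 was high for Aoah (8.15, others 7.07 to 7.23). Replicate 4 was low for Naip2 (6.81, others 7.25 to 7.34) and high for Ccnd2 (9.26, others 8.85 to 8.88). Replicate 2 was low for Anxa6 (8.75, others 8.97 to 8.99) and for Hp (10.12, others 10.79 to 10.88), and replicate 1 was low for Ms4a6c (9.08, others 9.70 to 9.79).

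The c/chip cMoP replicate 1 also stood apart for Xist (10.90, others 4.33 to 5.16) and for the Y-linked genes Eif2s3y (2.97, others 8.69 to 9.11) and Kdm5d (2.24, others 6.01 to 6.66), with a Y-linked mean of 2.67 (others 6.70 to 7.34). Of 70 list groups examined, the others apart were the MDP markers on c/chip MDP replicate 4 (8.85, others 8.75 to 8.76), the primary granule genes on c/chip MDP replicate 1 (8.87, others 8.44 to 8.50) and the antioxidant genes on c/chip cMoP replicate 2 (6.68, others 6.91 to 6.96).

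The step of 13 genes differed between the genotypes by limma, on the log2 scale as the c/chip minus the control step. It was more positive for Dntt (4.61), Cmah (2.56) and Cd300c (1.82). It was more negative for Gp5 (−2.64), Hdc (−2.39), Ms4a3 (−1.97), Nkg7 (−1.75), Elane (−1.58), Emilin2 (−1.42), Gstm1 (−1.35), Gm1604b (−1.25), Srm (−1.09) and Gsr (−1.07).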

How the results depend on the processing

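Against 399 higher and 331 lower genes in the c/chip step, c/chip MDP replicate 2 as the single c/chip MDP array gave 191 and 181, a 2-fold minimum 194 and 203, and a fit of the c/chip groups alone 267 and 215, in which the difference between the steps could not be computed. Leaving out 1 array gave 229 to 422 higher and 208 to 341 lower, the lowest without c/chip cMoP replicate 3. The control step (631 and 380) gave 436 to 695 and 247 to 420 without 1 array, and 295 and 184 at 2-fold. The difference between the steps (13 genes) gave 5 to 33 without 1 array, 25 with MDP replicate 2 alone and 2, Dntt and Hdc, with the replicate number as a block, which gave 289 higher and 265 lower in the c/chip step. Same-numbered arrays of the 2 cell types correlated at 0.06 to 0.10 in c/chip and 0.05 to 0.12 in control mice after group means were removed. Different-numbered arrays correlated at −0.11 to 0.06 and at −0.12 to 0.11. Xist split control replicates 1 and 2 from 3 and 4 in both cell types, and the immediate early level did so in both genotypes. In c/chip mice, the Y-linked mean was 2.67 on cMoP replicate 1 and 6.42 on MDP replicate 1. Xist was 5.16 and 4.33 on cMoP replicates 3 and 4, and 10.65 and 9.72 on MDP replicates 3 and 4. At these numbers the cell types thus did not match, as they would for pairs from 1 animal. The labels do not pair the samples, so the main fit used no block, and whether the control numbers stand for pairs was not settled. With the block, Gp5 had an adjusted p of 0.0534 for the difference between the steps, and Elane, Nkg7 and Ms4a3 had 0.0582. Leaving out c/chip MDP replicates 1 and 3, chosen after seeing the data, gave 295 and 239. Of 93 named genes called, 45 were called in every fit, 48 lost the call in at least 1 and 0 reversed direction. The fits counted include the 2-fold minimum, where 21 genes lost the call by their size alone, and the single c/chip MDP array. The cause of the other changes was not tested.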
